A study of Mus musculus with 4 samples.

Results

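Globin transcripts and 2 other genes of the red cell lineage were followed in RNA from the mesenchyme of mouse molar tooth germs. The 9 genes were chosen by name. They are the embryonic alpha-like globin Hba-x, the adult alpha globins Hba-a1 and Hba-a2, the embryonic beta-like globins Hbb-y and Hbb-bh1, the adult beta globins Hbb-b1 and Hbb-b2, and the erythroid genes Alas2 and Slc4a1. All 9 were found among the 22072 gene names of the tables. The 4 libraries came from embryos at embryonic day 14 of a mixed background and were Msx1-/- (mutant) and Msx1+/- (control) upper molars and Msx1-/- and Msx1+/- lower molars. Msx1 is a homeobox gene that tooth germs need to grow past the bud. The labels do not name the mutant allele, and the controls carry 1 mutant copy, although the series title speaks of wild type. Each group has 1 library, made from laser-captured tissue pooled from 3 pairs of control and mutant samples. No difference below therefore has a replicate check, and whether both jaws came from the same embryos is not stated.

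Haemoglobin carries oxygen as a tetramer of alpha-like and beta-like globin chains, each holding a heme group. In the mouse embryo the first (primitive) red cells arise in the yolk sac and make embryonic chains from Hba-x, Hbb-y and Hbb-bh1, and later (definitive) cells from the fetal liver make adult chains. Alas2 encodes the erythroid form of the first enzyme of heme synthesis, and Slc4a1 encodes band 3, the anion exchanger of the red cell membrane. Red cells reach the tooth germ in its blood vessels. In bulk RNA, fewer red cells and less globin RNA per cell cannot be told apart.

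Levels are FPKM, the read fragments assigned to a transcript, scaled by its length and by the mapped fragments of the library, summed over the entries of a gene name. Differences are in log2(FPKM + 1), a scale that shrinks the differences of weak genes, and a gene was counted as different where this difference was at least 1 (2-fold). Genes averaging 1 FPKM or more were kept, 10537 in all. Of the 9 genes, 8 were kept and Hba-a2 was not. Summed sequence over annotated transcripts was 264 to 410 megabases per library, and 10201 to 10706 genes reached 1 FPKM. All 12 genes listed as dental mesenchyme markers were kept, with a summed level of 791 to 1048 FPKM. Vim and Col1a1 had the highest means in that list (186 and 182 FPKM). Msx1 itself read 126 and 85.9 FPKM in Msx1-/- upper and lower molars, against 170 and 184 FPKM in Msx1+/- upper and lower molars. Because the part of the gene that the allele removes is not stated, these values do not check the genotype labels.

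The adult globin genes are near-identical copies, which limits what a gene-level value can say. The coding sequences of Hba-a1 and Hba-a2 in the GENCODE M21 annotation (build GRCm38) differ at 1 of 426 bases, not counting the stop codon. In both mm9 copies of the adult alpha gene the tables list an Hba-a1 entry and an Hba-a2 entry over nearly the same bases. The Hba-a1 entries lie on chromosome 11 at 32183672 to 32184486 and at 32196489 to 32197303. The Hba-a2 entries start 3 bases further along. At the beta cluster on chromosome 7, the Hbb-b1 entry (110961042 to 110962437, mm9) and the Hbb-b2 entry (110961038 to 110962417) cover the same gene. In the RefSeq table of build GRCm38.p6 the transcript called Hbb-b1 in these tables carries the symbol Hbb-bt. A further adult beta globin, called Beta-s in the tables and Hbb-bs in RefSeq, lies at 110975037 to 110976442. Its coding sequence differs from that of Hbb-bt at 1 of 441 bases, with 416 consecutive bases shared. Beta-s is not among the 9 genes, but its values are given beside theirs.

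The 60 coding bases around each such difference are printed to show how little separates the adult copies. They are from GENCODE M21, build GRCm38, 5′ to 3′. Capitals in Hbb-bs and Hbb-bt mark the base at which these differ, and in Hbb-y the bases that differ from Hbb-bs. Capitals in Hba-a1 and Hba-a2 mark the base at which these differ, and in Hba-x the bases that differ from Hba-a1.
Hbb-bs, chr7:103826668-103826727, minus strand: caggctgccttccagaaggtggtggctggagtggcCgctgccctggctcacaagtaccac
Hbb-bt, chr7:103812659-103812718, minus strand: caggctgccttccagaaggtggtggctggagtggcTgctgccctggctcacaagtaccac
Hbb-y, chr7:103851877-103851936, minus strand: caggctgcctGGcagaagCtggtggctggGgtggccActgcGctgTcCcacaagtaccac
Hba-a1, chr11:32284313-32284372, plus strand: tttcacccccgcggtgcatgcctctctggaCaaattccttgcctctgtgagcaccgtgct
Hba-a2, chr11:32297130-32297189, plus strand: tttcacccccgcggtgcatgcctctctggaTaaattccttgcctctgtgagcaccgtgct
Hba-x, chr11:32277930-32277989, plus strand: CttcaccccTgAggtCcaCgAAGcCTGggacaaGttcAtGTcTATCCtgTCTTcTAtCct
The embryonic genes are well apart from the adult ones. Over the whole coding sequence Hbb-y is 74.4% identical to Hbb-bs and 76.4% identical to Hbb-bh1, and Hba-x is 61.7% identical to Hba-a1. Between Hbb-y and Hbb-bs the longest identical run is 22 bases, and between Hba-x and Hba-a1 it is 18 bases.

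The 150 bases before the start site are shown for the genes that were found in the RefSeq promoter table (build GRCm38.p6), to set the letters upstream of embryonic and adult globin genes side by side. By symbol 5 of the 9 genes matched, and Hbb-bs and Hbb-bt were added for Beta-s and Hbb-b1. Capitals mark 4 kinds of short motif. These are a GATA site (AGATAA or AGATAG, or either with T as the first base, on either strand), CCNCNCCC (a CACCC-type box, either strand), CCAAT (either strand) and TATAA (given strand). Motifs that touch or overlap run together in the capitals.
Hba-x, chr11:32276450-32276599, plus strand: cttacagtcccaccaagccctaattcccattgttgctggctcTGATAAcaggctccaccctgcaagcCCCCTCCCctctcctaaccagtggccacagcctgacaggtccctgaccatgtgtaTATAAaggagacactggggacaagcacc
Hba-a1, chr11:32283522-32283671, plus strand: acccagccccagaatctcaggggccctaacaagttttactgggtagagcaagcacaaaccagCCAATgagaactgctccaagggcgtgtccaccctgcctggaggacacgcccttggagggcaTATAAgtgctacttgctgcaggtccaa
Hbb-y, chr7:103853208-103853357, minus strand: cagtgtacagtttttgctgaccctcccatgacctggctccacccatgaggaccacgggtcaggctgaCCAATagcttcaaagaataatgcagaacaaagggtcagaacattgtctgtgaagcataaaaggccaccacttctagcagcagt
Hbb-bs, chr7:103827929-103828078, minus strand: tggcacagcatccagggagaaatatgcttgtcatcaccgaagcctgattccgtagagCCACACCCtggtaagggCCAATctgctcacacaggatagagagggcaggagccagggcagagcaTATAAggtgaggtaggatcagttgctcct
Hbb-bt, chr7:103813924-103814073, minus strand: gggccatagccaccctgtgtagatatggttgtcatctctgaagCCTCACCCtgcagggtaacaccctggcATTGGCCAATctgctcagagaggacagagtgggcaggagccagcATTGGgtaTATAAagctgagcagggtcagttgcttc
Alas2, chrX:150547267-150547416, plus strand: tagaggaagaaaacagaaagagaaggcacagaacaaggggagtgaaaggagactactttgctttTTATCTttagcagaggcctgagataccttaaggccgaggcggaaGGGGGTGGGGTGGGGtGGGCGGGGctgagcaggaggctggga
The window of Hba-a2 holds the same CCAAT and TATAA words as that of Hba-a1. A GATA site stood in 2 of these 7 windows (Hba-x and Alas2), against 16% of 32851 promoter windows of the same length. CCNCNCCC stood in 4 of 7 (Hba-x, Hbb-bs, Hbb-bt and Alas2), against 38.1% of all windows. CCAAT stood in 5 of 7, all but Hba-x and Alas2, against 24.5%. TATAA stood in 5 of 7, all but Hbb-y and Alas2, against 9.99%. A match is a description of the letters in this window only.

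**Figure D1:**
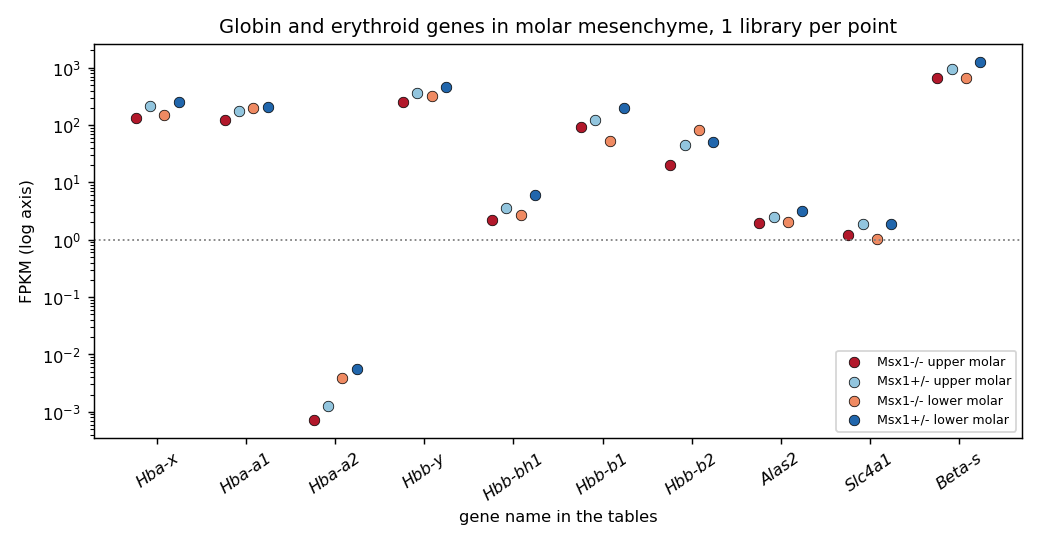
FPKM (log axis) of the 9 genes and of Beta-s, with 1 point per library and a dotted line at 1 FPKM. Beta-s and Hbb-y were the most abundant, Hbb-bh1, Alas2 and Slc4a1 lay at 1.01 to 5.98 FPKM, and Hba-a2 reached at most 0.00565 FPKM.

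Embryonic globin transcripts were abundant in all 4 libraries. Hbb-y, which encodes the main embryonic beta-like chain, had 257 and 322 FPKM in Msx1-/- upper and lower molars, against 360 and 466 FPKM in Msx1+/- upper and lower molars. It ranked between 64th and 102nd among all gene names. Both mutant values were below both control values. Neither difference, mutant minus control, was counted, at -0.49 in upper molars and -0.53 in lower molars.

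Hba-x, the embryonic alpha-like gene (chromosome 11, 32176600 to 32178115, mm9), had 135 and 152 FPKM in Msx1-/- upper and lower molars, against 214 and 248 FPKM in Msx1+/- upper and lower molars. The genotypes did not overlap, and the differences of -0.66 and -0.71 were not counted. Hbb-bh1, the embryonic beta-like gene that is prominent in the earliest primitive cells, was far lower in level than Hbb-y. It had 2.17 and 2.75 FPKM in Msx1-/- upper and lower molars, against 3.54 and 5.98 FPKM in Msx1+/- upper and lower molars. Here too both mutant values lay below both control values, with differences of -0.52 and -0.90. Hbb-bh1 made up 0.839% and 0.848% of the embryonic beta-like FPKM in Msx1-/- upper and lower molars, against 0.972% and 1.27% in Msx1+/- upper and lower molars.

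Adult alpha globin reads were assigned to Hba-a1 almost entirely. Hba-a1 had 122 and 194 FPKM in Msx1-/- upper and lower molars, against 173 and 205 FPKM in Msx1+/- upper and lower molars. The Msx1-/- lower value lay between the control values, so the genotypes overlapped. The differences were -0.50 in upper and -0.07 in lower molars. Hba-a2 was listed at 0.000716 to 0.00565 FPKM, less than 0.003% of adult alpha globin in each library. With 1 coding base between them, this division of reads says nothing of the activity of the separate copies, and Hba-a1 is best read as adult alpha globin in total.

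The adult beta entries differed most between libraries. Hbb-b1 had 91.4 and 53.6 FPKM in Msx1-/- upper and lower molars, against 121 and 201 FPKM in Msx1+/- upper and lower molars. Hbb-b2 had 20.3 and 83.6 FPKM in Msx1-/- upper and lower molars, against 44.5 and 51.5 FPKM in Msx1+/- upper and lower molars. In Msx1-/- lower molars Hbb-b2 exceeded Hbb-b1, whereas Hbb-b1 was the higher in the other 3 libraries. Hbb-b2 took 18.2% and 60.9% of the pair's FPKM in Msx1-/- upper and lower molars, against 26.9% and 20.4% in Msx1+/- upper and lower molars.

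**Figure D2:**
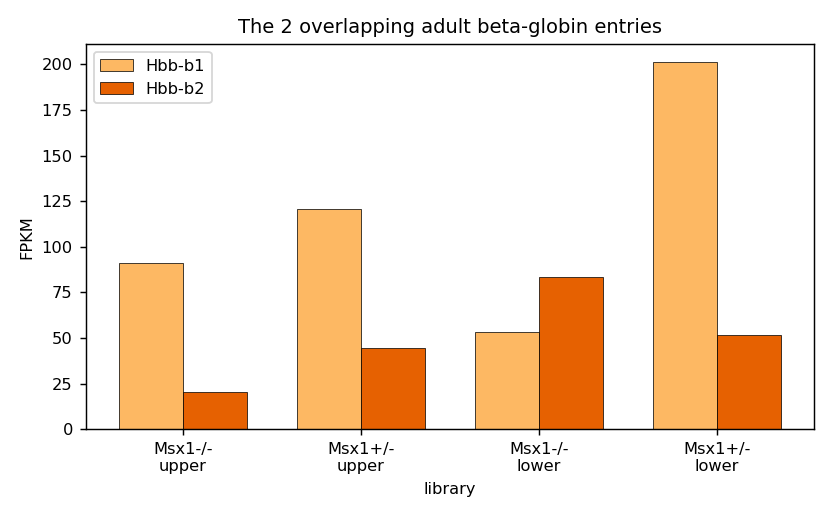
FPKM of Hbb-b1 and Hbb-b2, whose entries cover the same gene, with 1 bar per library and entry and no error bars because each group has 1 library. Hbb-b2 is the taller bar only in Msx1-/- lower molars (83.6 against 53.6 FPKM).

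Every counted difference among the 9 genes was in this pair. In upper molars Hbb-b2 alone was lower in the mutant (-1.09), 1 of 8 genes kept, where 3.26% of all genes were counted as lower and 1.07% as higher. In lower molars Hbb-b1 alone was lower in the mutant (-1.89), again 1 of 8, where 9.43% of all genes were counted as lower and 0.864% as higher. Hbb-b2 ran the other way there, at 0.69. None of the 8 was counted in both jaws, where 1.59% of all genes were lower and 0.399% higher. When the copies were summed, the pair had 112 and 137 FPKM in Msx1-/- upper and lower molars, against 165 and 253 FPKM in Msx1+/- upper and lower molars. These sums differed by -0.56 and -0.88, so no adult beta difference was counted once the copies were joined.

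Beta-s, the adult beta gene with the highest level, had 663 and 670 FPKM in Msx1-/- upper and lower molars, against 934 and 1262 FPKM in Msx1+/- upper and lower molars. It ranked 11th to 30th among all gene names. Its genotypes did not overlap, but its differences, -0.49 in upper molars and -0.91 in lower molars, were not counted. Beta-s was 83.0% to 85.6% of the adult beta FPKM in each library. Its coding sequence is nearly that of Hbb-bt, so this share may depend on how reads were divided between the copies.

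Alas2 and Slc4a1 were close to the lower limit of what was kept. Alas2 (X chromosome, 146981960 to 147005165, mm9) had 1.98 and 2.04 FPKM in Msx1-/- upper and lower molars, against 2.48 and 3.19 FPKM in Msx1+/- upper and lower molars, with differences of -0.22 and -0.46. The upper gap lay mostly in its minor transcript entry (0.0739 FPKM in Msx1-/- against 0.549 FPKM in Msx1+/-). Its main entry had 1.91 and 2.04 FPKM in Msx1-/- upper and lower molars, against 1.93 and 3.19 FPKM in Msx1+/- upper and lower molars. On the main entry the genotypes overlapped. Slc4a1 (chromosome 11, 102210134 to 102226595) had 1.20 and 1.01 FPKM in Msx1-/- upper and lower molars, against 1.90 FPKM in each of the Msx1+/- libraries, with differences of -0.40 and -0.53. In both genes, on summed entries, the mutant values lay below the control values by less than the threshold. Mean read depth over their transcripts was 1.88 to 2.59 for Alas2 and 0.933 to 1.99 for Slc4a1, against 279 to 379 for Hbb-y, so these low values are the least precise. Read counts were not in the tables and no counting interval can be given. Per 1000 FPKM of globin, Alas2 read 1.53 and 1.38 FPKM in Msx1-/- upper and lower molars, against 1.34 and 1.31 FPKM in Msx1+/- upper and lower molars. On the same scale Slc4a1 ran the other way, at 0.930 and 0.684 FPKM in Msx1-/- upper and lower molars, against 1.03 and 0.777 FPKM in Msx1+/- upper and lower molars.

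**Figure D3:**
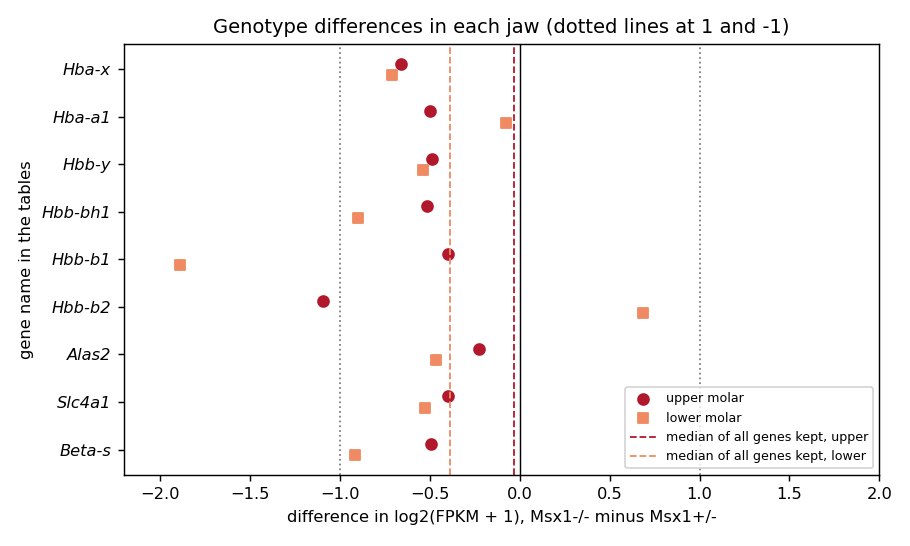
Difference in log2(FPKM + 1), Msx1-/- minus Msx1+/-, for the 8 genes kept and Beta-s in upper (circles) and lower (squares) molars. Dashed lines are the medians of all genes kept (-0.03 and -0.39), and only Hbb-b2 in upper and Hbb-b1 in lower molars lie beyond the dotted lines at 1 and -1.

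Taken over the 8 genes kept, the median difference between Msx1-/- and Msx1+/- was -0.49 in upper molars, where the median of all genes was -0.03. There 8 of 8 values were negative, as were 54.2% of all genes. In lower molars the median was -0.53 against -0.39 for all genes, 7 of 8 values were negative, and so were 82.4% of all genes. Both mutant values lay below both control values in 6 of 8 (all but Hba-a1 and Hbb-b2), where 41.3% of all genes did the same and 9.52% did the reverse. Alas2 did so on its summed entries but not on its main entry. The Msx1-/- lower library was lower over most genes. Relative to the median gene, the upper and lower differences of Hbb-y were -0.45 and -0.15, those of Hba-x -0.62 and -0.32, and those of Hba-a1 -0.47 and 0.31. After rescaling by median of ratios both mutant values lay below both control values in 3 of 8 (Hba-x, Hbb-b1 and Slc4a1) and above them in 0 of 8, where 23.4% of all genes lay below and 24.5% above. Under the other 3 rescalings 3 or 4 of 8 lay below, where 18.3% to 21.5% of all genes did. The difference of Hba-a1 in lower molars was above 0 under each of the 4 rescalings (0.41 by median of ratios), and that of Hbb-y stayed below 0 (-0.04 by median of ratios).

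A limma model with genotype and jaw as terms, which has 1 residual degree of freedom and borrows its spread from all genes, passed 0 of the 8 genes for genotype after Benjamini-Hochberg adjustment and 585 of 10537 genes in all (5.55%). Hbb-b1 came nearest, at -1.14 (SE 0.386, limma adjusted p = 0.0540), with differences of -0.40 in upper and -1.89 in lower molars. Hbb-bh1 followed at -0.71 (SE 0.285, limma adjusted p = 0.144), and 2 of the 8 had an unadjusted p under 0.05, as did 15.7% of all genes. The fit takes the jaws as the repeats of each genotype. Its SE was nearly the same for Hbb-b2 (0.379), which ran in opposite directions in the jaws. The p of Hbb-b1 therefore does not measure the spread of that gene. Since Hbb-b1 shares its reads with Hbb-b2, its p belongs to that division of reads as much as to adult beta globin.

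**Figure D4:**
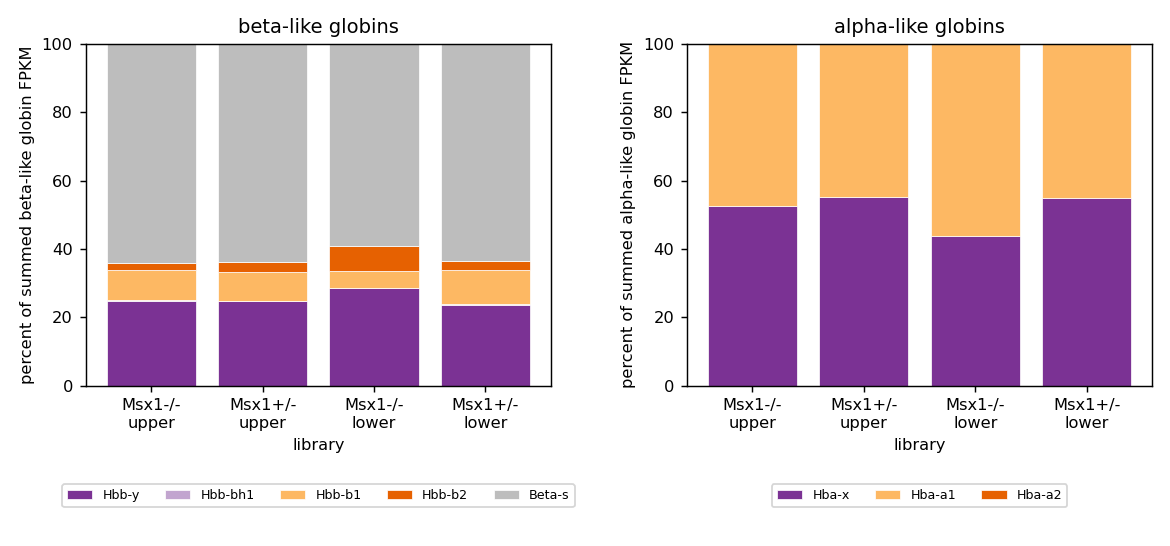
Composition of the summed beta-like and alpha-like globin FPKM in percent, with 1 stacked bar per library. Beta-s forms the largest part of the beta-like sum, and Hba-x is the smaller part of the alpha-like sum only in Msx1-/- lower molars (43.8%).

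Shares within a library do not depend on its scaling. They are shares of globin transcripts and do not give the shares of primitive and definitive red cells. Embryonic Hbb-y and Hbb-bh1 made up 69.8% and 70.3% of the beta-like FPKM of the 9 genes in Msx1-/- upper and lower molars, against 68.7% and 65.1% in Msx1+/- upper and lower molars. With Beta-s in the sum, an addition made after its values were seen, the embryonic share was 25.0% and 28.7% in Msx1-/- upper and lower molars, against 24.9% and 23.8% in Msx1+/- upper and lower molars. The other 3 libraries lay within 23.8% to 25.0%, below Msx1-/- lower molars. On the alpha side Hba-x made up 52.6% and 43.8% in Msx1-/- upper and lower molars, against 55.3% and 54.8% in Msx1+/- upper and lower molars. Msx1-/- lower molars thus had the highest embryonic share on the beta side and the lowest on the alpha side. Alpha-like to beta-like FPKM stood at 0.249 and 0.306 in Msx1-/- upper and lower molars, against 0.264 and 0.228 in Msx1+/- upper and lower molars, with Beta-s included. No spread between replicates is available to judge these gaps.

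The sum of all globins (the 7 among the 9 genes, and Beta-s) was 1291 and 1477 FPKM in Msx1-/- upper and lower molars, against 1849 and 2440 FPKM in Msx1+/- upper and lower molars. That is 0.698 of the control level in upper and 0.606 in lower molars. Globins took 0.719% and 0.997% of the total FPKM in Msx1-/- upper and lower molars, against 0.982% and 1.18% in Msx1+/- upper and lower molars.

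Between the jaws, the other comparison of the design, upper values were mostly below lower values. The median difference, upper minus lower, was -0.20 in Msx1-/- and -0.26 in Msx1+/- libraries, where the medians of all genes were 0.27 and -0.08. Hbb-b2 in Msx1-/- was the only counted difference (-1.99), 1 of 8, where 0.418% of all genes were lower and 3.22% higher in upper molars. In Msx1+/- 0 of 8 were counted, where 0.218% of all genes were lower and 1.48% higher. In both genotypes together 0 of 8 were counted, where 0.0285% of all genes were lower and 0.133% higher. Hba-a1 and Hbb-b2 had both upper values below both lower values, as did 7.23% of all genes, and none of the 8 did the reverse, as 13.7% of all genes did. After rescaling by median of ratios 5 of 8 lay below (Hba-a1, Hbb-y, Hbb-bh1, Hbb-b2 and Alas2), where 14.9% of all genes did. Under the other 3 rescalings 4 or 5 of 8 did, where 10.8% to 15% of all genes did. With the copies summed and no rescaling, 1 of 7 (Hba-a1) did, as did 7.22% of all genes. Hbb-y differed by -0.32 in Msx1-/- and -0.37 in Msx1+/- libraries. These comparisons share their libraries with the genotype comparisons. The limma fit passed 0 of the 8 genes for jaw, where 0.807% of all genes passed. It gave 1 of the 8 (Hbb-b2, limma adjusted p = 0.227) an unadjusted p under 0.05, as it did 5.26% of all genes.

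Regulators and markers of nucleated red cell precursors had low FPKM. Of 9 erythroid marker symbols 7 matched, and 1 of them was kept. Gata1, the master transcription factor of the lineage, Hemgn, and Epb4.2, which encodes a red cell membrane protein, stayed below 0.1 FPKM in every library. Klf1, the activator of adult beta globin, had 0.771 and 0.331 FPKM in Msx1-/- upper and lower molars, against 0.424 and 0.503 FPKM in Msx1+/- upper and lower molars. Car2, a carbonic anhydrase gene that other tissues also use, was the marker kept and accounted for most of the list's summed level, which was 5.28 and 6.98 FPKM in Msx1-/- upper and lower molars, against 4.89 and 6.69 FPKM in Msx1+/- upper and lower molars.

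Genes of heme and iron handling are used by all cells as well as by red cells. Of 13 heme synthesis and heme transport genes kept, 0 were counted in upper molars and 1 (Tmem14c) was lower in the mutant in lower molars, with medians of 0.22 and -0.33. Tmem14c, which moves heme precursors into mitochondria, had 23.5 and 12.9 FPKM in Msx1-/- upper and lower molars, against 19.2 and 29.8 FPKM in Msx1+/- upper and lower molars. Urod, an enzyme of the middle of the pathway, had 14.0 and 14.1 FPKM in Msx1-/- upper and lower molars, against 11.7 and 13.6 FPKM in Msx1+/- upper and lower molars. Among 10 iron genes kept, 0 were counted in upper and 2 were lower in the mutant in lower molars (Tfrc and the ferritin light chain gene Ftl1), with medians of -0.33 and -0.58. In lower molars 9.43% of all genes were counted as lower. Ftl1 had 955 and 504 FPKM in Msx1-/- upper and lower molars, against 867 and 1025 FPKM in Msx1+/- upper and lower molars. Fth1, the ferritin heavy chain gene, had 203 and 161 FPKM in Msx1-/- upper and lower molars, against 297 and 307 FPKM in Msx1+/- upper and lower molars. These are iron stores of all cells. Tfrc, the transferrin receptor gene and the main route of iron into red cell precursors, was named after its values were seen. It had 0.929 and 1.03 FPKM in Msx1-/- upper and lower molars, against 2.07 and 3.77 FPKM in Msx1+/- upper and lower molars.

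In the heme and haemoglobin scavenging list 0 of 6 genes kept were counted in either jaw, with medians of 0.05 and -0.18. Its most abundant genes were Lrp1, a receptor that takes up heme bound to hemopexin (differences of 0.22 and 0.24), and Blvrb, which reduces biliverdin (-0.00 and -0.91). In the erythroid transcription factor list 0 of 7 genes kept were counted (medians 0.08 and -0.51), and Ldb1 (0.11 and -0.55) and Foxo3 (0.15 and -0.34) were the most abundant. In the membrane and skeleton list 0 of 8 genes kept were counted (medians 0.31 and -0.02). The most abundant there were the glucose transporter gene Slc2a1 (0.35 and 0.03) and Epb4.1, the protein 4.1 gene (-0.03 and -0.31). Of 14 red cell enzyme and maturation genes kept, 1 was lower in the mutant in upper (Acp5) and 2 in lower molars (Acp5 and Ube2l6), with medians of 0.05 and -0.28. Of all genes kept, 3.26% were counted as lower in upper molars and 9.43% in lower molars. Acp5 was lower in both jaws, as were 1.59% of all genes. It had 0.486 and 0.511 FPKM in Msx1-/- upper and lower molars, against 3.06 and 5.61 FPKM in Msx1+/- upper and lower molars. Acp5 encodes tartrate-resistant acid phosphatase, which is better known from osteoclasts than from red cells. Prdx2, an abundant red cell antioxidant enzyme that other cells also make, had 119 and 125 FPKM in Msx1-/- upper and lower molars, against 127 and 154 FPKM in Msx1+/- upper and lower molars. Gpx1, a glutathione peroxidase gene, had 67.0 and 78.3 FPKM in Msx1-/- upper and lower molars, against 82.0 and 84.6 FPKM in Msx1+/- upper and lower molars. The Cygb gene, the one other globin gene kept beside Beta-s, had 1.70 and 1.60 FPKM in Msx1-/- upper and lower molars, against 3.11 and 3.75 FPKM in Msx1+/- upper and lower molars.

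**Figure D5:**
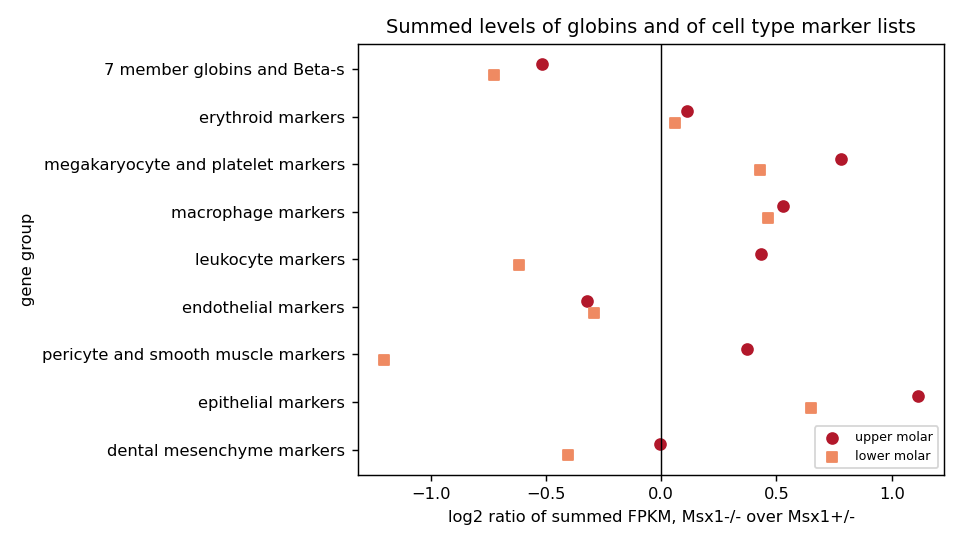
Log2 ratio of summed FPKM, Msx1-/- over Msx1+/-, for the globins (7 of the 9 genes, and Beta-s) and for 8 lists of cell type markers, in upper (circles) and lower (squares) molars. The globin sum was below 0 in both jaws (-0.52 and -0.72), as was the endothelial sum (-0.32 and -0.29, and -0.02 and -0.30 without Egfl7), while the erythroid marker sum was slightly above 0 (0.11 and 0.06) and the epithelial and macrophage sums were above 0.

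Markers of vessels and other blood cells were set beside the globins because red cells lie in vessels. All 9 endothelial markers were kept, and their summed level was 54.0 and 51.7 FPKM in Msx1-/- upper and lower molars, against 67.4 and 63.2 FPKM in Msx1+/- upper and lower molars. Of the 9, 1 (Egfl7) was lower in the mutant in upper molars and 0 were counted in lower molars. Of all genes kept, 3.26% were counted as lower and 1.07% as higher in upper molars, and 9.43% and 0.864% in lower molars. In both jaws 1.59% of all genes were lower and 0.399% higher. Cdh5, the endothelial cadherin gene, had 16.5 and 17.4 FPKM in Msx1-/- upper and lower molars, against 18.9 and 18.1 FPKM in Msx1+/- upper and lower molars. The upper molar gap in the sum was in Egfl7, at 9.66 and 9.63 FPKM in Msx1-/- upper and lower molars, against 22.6 and 11.5 FPKM in Msx1+/- upper and lower molars. Without Egfl7, a choice made after its values were seen, the endothelial sum was 44.3 and 42.1 FPKM in Msx1-/- upper and lower molars, against 44.9 and 51.6 FPKM in Msx1+/- upper and lower molars. The median difference over the 9 markers was -0.04 in upper molars and -0.24 in lower molars. Globin FPKM per endothelial FPKM was 23.9 and 28.6 in Msx1-/- upper and lower molars, against 27.4 and 38.6 in Msx1+/- upper and lower molars. Without Egfl7 it was 29.1 and 35.1 in Msx1-/- upper and lower molars, against 41.2 and 47.2 in Msx1+/- upper and lower molars. Macrophage markers (7 of 8 kept, 0 counted in either jaw) summed to 27.8 and 33.6 FPKM in Msx1-/- upper and lower molars, against 19.3 and 24.3 FPKM in Msx1+/- upper and lower molars. Megakaryocyte and platelet markers, of which only Pf4 was kept, summed to 6.13 and 7.21 FPKM in Msx1-/- upper and lower molars, against 3.57 and 5.36 FPKM in Msx1+/- upper and lower molars. Without Pf4, also chosen after its values were seen, the other 4 summed to 1.72 and 2.16 FPKM in Msx1-/- upper and lower molars, against 1.75 and 3.12 FPKM in Msx1+/- upper and lower molars. Epithelial markers (4 of 7 kept) summed to 40.4 and 57.0 FPKM in Msx1-/- upper and lower molars, against 18.7 and 36.3 FPKM in Msx1+/- upper and lower molars, with Krt5 and Krt15 higher in the mutant in upper and Krt15 in lower molars. Leukocyte markers summed to 7.91 and 6.74 FPKM in Msx1-/- upper and lower molars, against 5.86 and 10.3 FPKM in Msx1+/- upper and lower molars. Pericyte and smooth muscle markers without Pdgfrb, whose estimate was marked as failed, summed to 24.4 and 9.37 FPKM in Msx1-/- upper and lower molars, against 18.9 and 21.5 FPKM in Msx1+/- upper and lower molars. Of the 4, Acta2 was higher in the mutant in upper molars, and Rgs5 and Tagln were lower in lower molars. Of the 12 dental mesenchyme markers, 1 (Dlx2) was lower in the mutant in upper molars and 4 (Msx1, Dlx1, Dlx2 and Twist1) in lower molars. Dlx2, lower in both jaws, had 14.7 and 2.66 FPKM in Msx1-/- upper and lower molars, against 56.3 and 34.7 FPKM in Msx1+/- upper and lower molars. The part of vessel content, or of tissue capture, in the globin values was not tested.

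The genes whose profile was most like that of the red cell genes were sought by the root mean square difference between centred log2(FPKM + 1) profiles over the 4 libraries. Genes of the other globin, heme synthesis, erythroid and red cell lists, Beta-s among them, were left out. Against the mean profile of the 8 genes kept, the nearest of 2576 genes with at least its range were Gm12166 (0.05), C1qtnf7 (0.07), Hunk (0.07), Bmp4 (0.07) and Wisp1 (0.08). The 8 genes themselves had a median distance of 0.16, and 24 of the other genes lay within it. The 8 were not held to the range asked of the others (0.866), which Hbb-y, Hba-a1, Alas2 and Slc4a1 did not reach. Hbb-y was nearest to the mean profile it is part of (0.02), and Hbb-b2 was the farthest (0.62). Bmp4, a ligand of tooth mesenchyme, had 17.6 and 20.2 FPKM in Msx1-/- upper and lower molars, against 25.0 and 34.7 FPKM in Msx1+/- upper and lower molars. With 4 libraries such likeness is a description only.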

How the data were processed

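RNA sequencing of laser-captured molar mesenchyme from 4 mouse groups (Msx1-/- and Msx1+/-, upper and lower) was used as deposited, with 1 library per group. Per the labels' protocols, RNA from a small-sample column kit went into NuGEN's Ovation RNA-Seq kit, which amplifies it. No label says that strand was kept. The submitters' processing notes name Bowtie 0.12.7, TopHat 1.4.1 and the mm9 build. In the authors' tables, as deposited, are FPKM and a coverage signal for 28107 RefSeq transcript entries, per the file headers. The columns are those that Cufflinks writes (the sources used here do not give its version). Coverage was FPKM times 1 constant per library, and whole reads could not be recovered.

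FPKM was summed per gene name. Names with a failed estimate (66) and small RNA names (716) were left out, and genes averaging 1 FPKM or more were kept. A difference of at least 1 in log2(FPKM + 1) was counted, with no test. Start positions were made 1-based. The 9 genes and the 15 lists (157 of 167 symbols matched) were chosen with earlier results of these data known. From each list the genes of highest level, those counted in both jaws and, where said, others were named. A limma fit (3.58.1, R 4.3.3, genotype and jaw terms) was tested on simulated data. Alternatives were other pseudocounts (0.1 and 5), filters, rescalings, a 1.5-fold threshold, the highest transcript, and summed copies. Python 3.11.15 was used.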

Additional observations from a re-analysis of the deposited data

Results flagged for a closer look

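For Hbb-b2 the log2 difference, Msx1-/- minus Msx1+/-, was -1.09 in upper molars and 0.69 in lower molars. It was marked because the genotype difference runs in opposite directions in the jaws, each with 1 library per genotype, and the difference between the jaws was not tested. Hbb-b1 differed by 0.76 in Msx1-/- and -0.73 in Msx1+/- libraries (upper minus lower), opposite directions that were likewise not tested. Both entries cover the same gene, and the sum of the pair was lower in the mutant library of each jaw by less than the threshold.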

How the results depend on the processing

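No paired analysis was possible because the labels give no replicate numbers and each group has 1 library, and no replicate could be left out. With the overlapping copies summed, 0 genes were counted in upper molars, 0 in lower molars and 0 between the jaws of Msx1-/- libraries, against 1 in each on separate copies, because Hbb-b1 and Hbb-b2 were the counted ones. In lower molars the genotype count was 2 with a pseudocount of 0.1, 2 after rescaling by median of ratios, 2 with a common upper quartile, 2 with a common total and 2 with a common total of all other genes. Hbb-bh1 was added by the pseudocount and Hbb-b2, higher in the mutant at 1.17 to 1.20, by the rescalings. In upper molars the count was 0 with a pseudocount of 5 and 0 with a common upper quartile. Between the jaws of Msx1-/- libraries it was 2 by median of ratios and 2 with a common upper quartile, with Hba-a1 added. At a 1.5-fold threshold, in either direction, the counts were 2 of 8 in upper (13.2% of all genes) and 4 of 8 in lower molars (34.6%), 3 and 2 between the jaws of Msx1-/- (19% of all genes) and Msx1+/- libraries (6.81%), and 1 (Hba-x) in both jaws (7.02%). The limma fit passed 0. No rescaling or filter brought a median difference of the genes to the threshold, and no counted difference changed sign.

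Taking the highest transcript in place of the sum, which drops 1 of the 2 alpha copies, put Hba-x at 65.8% and 56.6% of alpha-like FPKM in Msx1-/- upper and lower molars, against 67.2% in each of the Msx1+/- libraries (67.18% upper and 67.22% lower). The ratio of alpha-like to beta-like FPKM was then 0.554 and 0.581 in Msx1-/- upper and lower molars, against 0.601 and 0.510 in Msx1+/- upper and lower molars, while on summed entries it was 0.694 and 0.75 against 0.731 and 0.625. With Beta-s in the adult sum, added after seeing the data, the ratio was 0.249 and 0.306 against 0.264 and 0.228, and the embryonic beta share was 25.0% and 28.7% against 24.9% and 23.8%. Alas2 and Slc4a1 are limited by their read depth of about 1 to 3 per base.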

Other observations

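Some red cell skeleton genes below the level kept were named after their values were seen. Ank1, which anchors band 3 to the red cell skeleton, had 0.0715 and 0.0977 FPKM in Msx1-/- upper and lower molars, against 0.762 and 0.764 FPKM in Msx1+/- upper and lower molars. Add2, a skeleton gene also used in neurons, had 0.186 and 0.0966 FPKM in Msx1-/- upper and lower molars, against 0.636 and 0.590 FPKM in Msx1+/- upper and lower molars. Gypc, a membrane glycoprotein gene that was kept, had 4.12 and 3.64 FPKM in Msx1-/- upper and lower molars, against 9.0 and 7.71 FPKM in Msx1+/- upper and lower molars, and differed by -0.97 and -0.91, just short of the threshold in both jaws. They were picked from 22 membrane and skeleton genes in the tables, of which the 8 kept had median differences of 0.31 and -0.02.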
